A study of Sus scrofa with 32 samples.

Results

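The Toll-like receptor genes TLR2, TLR3, TLR4, TLR7, TLR8, TLR9 and TLR10 and the gene of a related receptor, CD180, were followed across immune and epithelial cells of pig ileum and blood. They were chosen by symbol and make up 8 of the 25880 genes counted. In the count matrices 7 of the 8 carried their symbol, and TLR9 was found by its identifier (ENSSSCG00000011436) in the gene name table. TLR1, TLR5 and TLR6 were treated as other genes of the pathway.

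The study took single cells from the ileum of 2 mixed-breed pigs at 7 weeks of age and from peripheral blood mononuclear cells (PBMC) of the same animals. Pig 1 is labelled female and pig 2 male. From each ileum 3 dissections were made, 1 of Peyer's patch regions (PP), 1 of regions lacking patches (non-PP) and 1 of the whole cross section, and cells were isolated from epithelium, lamina propria and submucosa together and enriched for live lymphocytes, so that the few myeloid and epithelial cells were those left after that enrichment. This gave 6 ileal and 2 PBMC libraries of the 10X Chromium v2 assay, in which each captured RNA molecule carries a unique molecular identifier (UMI) and is counted once. With 2 animals, each group had n = 2, and p-values rest on the spread between the sums of the 2 pigs, estimated jointly over the 17 groups of 1 fit.

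The libraries held between 21134542 and 40111934 UMIs, and between 3776 and 7704 barcodes per library passed the study's thresholds on UMIs, genes and mitochondrial share. Of these 48629 cells, 35800 (73.6%) fell into one of 11 gates defined by marker genes, none of which was a member. Any pair of libraries shared between 21 and 80 barcodes of kept cells. A check of sex-linked genes found 1 library that went against its label. Summed over 4 Y-linked genes, the PP, non-PP and PBMC libraries of pig 1 held 0.161, 0.224 and 0 CPM (UMI counts scaled to depth), whereas the whole ileum library of pig 1 held 207 CPM and the libraries of pig 2 held between 119 and 226 CPM. The library labelled whole ileum pig 1 is part of every ileal pig 1 value below. Ileal sums of pig 1 may thus mix both animals, and the spread on which p-values rest may then not be one between pigs. Each result that this library decides is also given without it where that could be tested. Ileal dendritic cells could not be compared with ileal macrophages without it.

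Toll-like receptors are membrane proteins that bind conserved microbial molecules through leucine-rich repeats and signal through the adaptors MyD88 and TRIF to NF-κB and interferon regulatory factors. TLR2, TLR4 and TLR10 act at the cell surface, where TLR2 binds lipopeptides and TLR4 binds lipopolysaccharide together with MD-2 and CD14, while TLR3, TLR7, TLR8 and TLR9 sit in endosomes and bind double-stranded RNA, single-stranded RNA or unmethylated CpG DNA. CD180 (RP105) resembles TLR4 outside the cell, lacks the signalling domain, pairs with MD-1, the product of LY86, and is known from B cells and myeloid cells.

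On the Sscrofa11.1 assembly (RefSeq annotation) the genes are spread over 6 chromosomes. TLR4 lies at 1:258044610-258054641, TLR3 at 15:46966262-46977774 and CD180 at 16:45571252-45588032. TLR2 (8:75416257-75428370) and TLR10 (8:30124895-30134854) share a chromosome, and TLR10 is the neighbour of TLR1 and TLR6. TLR9, at 13:34353444-34370990, overlaps the annotated gene TWF2, and TLR7 (X:9573178-9576987) lies within the annotated span of TLR8 (X:9551284-9616762). The authors counted reads on a modified Ensembl annotation. Whether these overlaps of spans affected the counts of either pair was not tested.

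The 8 genes gave few UMIs. Over all kept cells CD180 had 3683 UMIs, TLR2 1575, TLR4 1409, TLR8 859, TLR10 823, TLR9 773, TLR3 271 and TLR7 120. Levels are therefore given as CPM in the summed counts of a gate, as the value in pig 1 and then in pig 2. CPM of 3' tag counts were compared between gates and not between genes. Antibody-secreting cells spent a large part of their UMIs on other transcripts, JCHAIN alone making 139429 CPM of the ileal ones, and a CPM value does not tell apart fewer molecules per cell from a larger total.

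**Figure D1:**
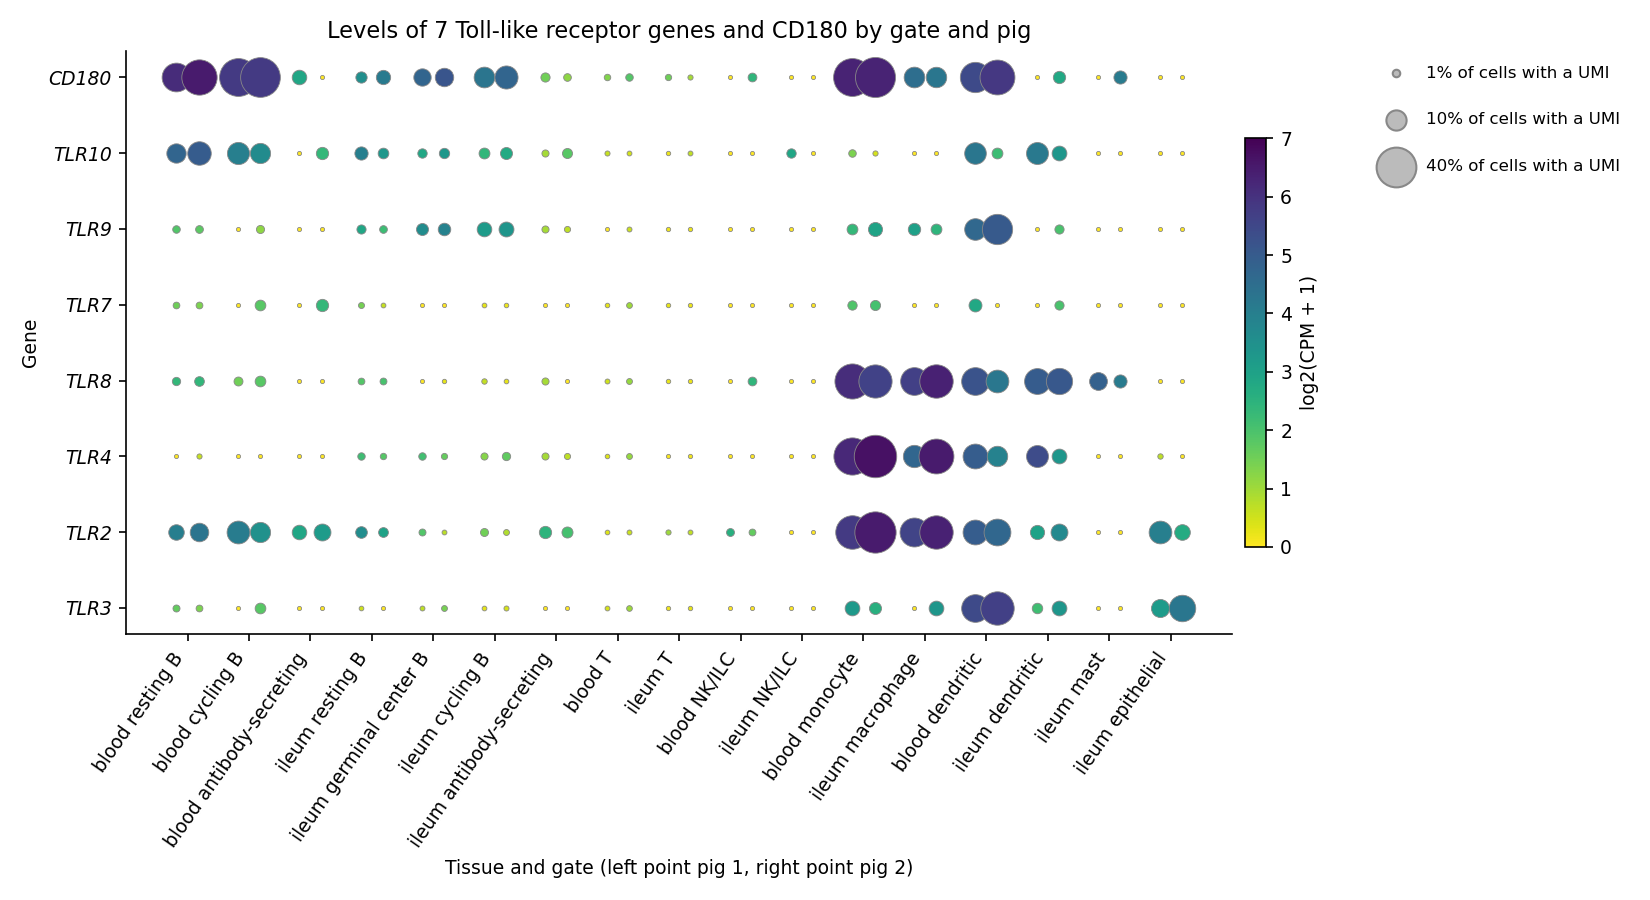
Level of the 8 genes in each gate of ileum and blood. Colour is log2(CPM + 1), dot area is the share of cells with at least 1 UMI, and the left and right dot of each pair are pig 1 and pig 2; CD180 is high in blood resting B cells and in monocytes, TLR10 in blood resting B cells, TLR2, TLR4 and TLR8 in monocytes and macrophages, and TLR3 and TLR9 in blood dendritic cells.

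The gates matched their labels in markers. CD79B, part of the B cell receptor complex, was found in 94.5% of ileal resting B cells and in 4.58% of ileal T cells, and MS4A1 in 76.9% and 1.11%. CSF1R was found in 75.0% of blood monocytes and in 77.1% of ileal macrophages, C1QA in 99.0% of ileal macrophages, FLT3 in 77.0% of ileal and 40% of blood dendritic cells (DCs), and EPCAM in 99.2% of epithelial cells. The shares follow partly from the gates, since these markers define them.

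CD180 was the member with most UMIs in B cells and was highest in the circulation. Blood resting B cells held 69.7 and 89.3 CPM of it and blood cycling B cells 54.7 and 54.8 CPM, against 10.6 and 16.6 CPM in ileal resting B cells, 25.7 and 34.8 in ileal germinal center (GC) B cells and 18.6 and 25.5 in ileal cycling B cells. A CD180 UMI was seen in 20.8% and 31.5% of blood resting B cells, with medians of 3381 and 4183 UMIs per cell, and in 0.643% and 1.01% of blood T cells, with medians of 3260 and 3259 UMIs. With every cell thinned to the UMI threshold, the shares were 8.74% and 10.6% against 0.322% and 0.425%. Resting and cycling B cells of blood lay above all B cell states of the ileum in both pigs. By CPM, within each pig resting B cells were lower than cycling B cells, and these lower than GC B cells, in the ileum. Shares of cells with a UMI put cycling above GC B cells, at 10.6% and 13.2% against 7.27% and 8.31%. Medians were 5440 and 4690 UMIs in cycling and 2714 and 2342.5 UMIs in GC B cells. After thinning the shares were 2.09% and 3.62% against 3.55% and 4.49%.

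**Figure D2:**
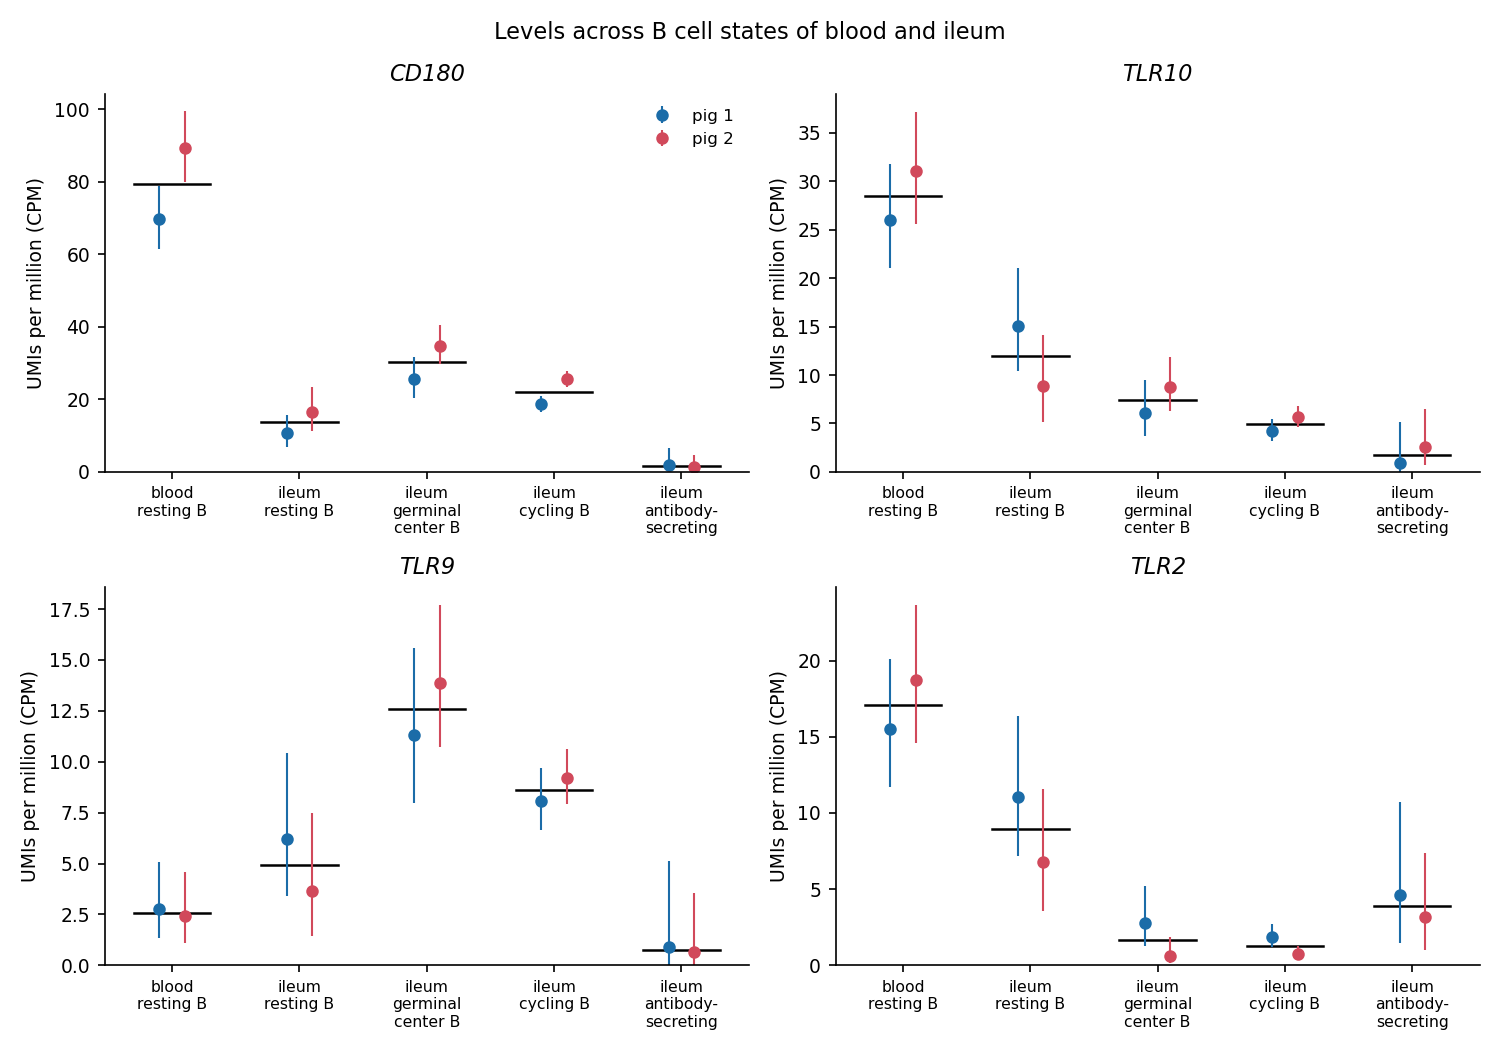
CPM of CD180, TLR10, TLR9 and TLR2 in B cell states of blood and ileum. Points are the 2 pigs with exact Poisson 95% intervals (counting error only) and the black line is their mean; CD180 runs from 1.84 and 1.27 CPM in ileal antibody-secreting cells to 69.7 and 89.3 CPM in blood resting B cells.

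Resting B cells of the ileum and of blood were compared to ask how the same B cell state differs between tissues. Ileal cells were freed by enzyme digestion and a density gradient, and blood cells were isolated in cell preparation tubes. Tissue and cell isolation therefore cannot be told apart in any comparison of ileum with blood. Counts were added up over the cells of a gate in each pig and tested by the quasi-likelihood method of edgeR, and genes with an adjusted p (Benjamini-Hochberg, 10300 genes) below 0.05 are termed called. In this comparison 2 of the 7 members tested were called, 1 in each direction, where 15.8% of all genes were, 9.19% higher and 6.58% lower. CD180 was lower in ileum by a log2 difference of -2.49 ± 0.34 (SE, adjusted p = 7.56e-06), in both pigs, and by -2.39 (adjusted p = 4.07e-05) without the library labelled whole ileum pig 1. Free RNA moved with the ileal value. Barcodes with 10 to 100 UMIs, taken as a measure of RNA outside cells, had 9.36 and 12.1 CPM of CD180 in the PP libraries, close to the level of ileal resting B cells, while T cells of the same libraries had 3.37 and 1.44 CPM. In blood these barcodes had 10.6 and 26.5 CPM. How much of the ileal CD180 signal is free RNA was not tested.

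LY86, the gene of the CD180 partner MD-1, was likewise higher in blood than in ileal resting B cells. It measured 860 and 938 CPM in blood resting B cells, 483 and 378 CPM in ileal resting B cells, 448 and 500 CPM in ileal GC B cells, 263 and 290 CPM in ileal cycling B cells and 4.74 and 5.29 CPM in ileal T cells. Its ileal resting and GC values overlapped. Between ileal and blood resting B cells the difference passed the test (log2 difference -0.997 ± 0.21, adjusted p = 0.00115). Across the 34 sums of pig and gate, LY86 was also, of 8313 genes compared, the gene whose log2(CPM + 1) was most correlated with that of CD180 (Pearson r = 0.82), followed by CIITA, the activator of MHC class II genes (r = 0.79). The sums share libraries and differ in depth, so these correlations describe the gates and carry no test.

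TLR4 was the other member that differed between resting B cells of ileum and blood, at counts near the limit. It had 3.54 and 2.60 CPM (8 and 5 UMIs) in ileal resting B cells, and 0 and 0.535 CPM (0 and 2 UMIs) in blood resting B cells. Both ileal values were above both blood values. The fitted log2 difference was 3.45 ± 1.16 (adjusted p = 0.0459), and the ratio of pooled counts was 11.4 with a 95% counting interval from 2.59 to 104. The call was lost without the library labelled whole ileum pig 1 (log2 3.56, adjusted p = 0.0533), with stricter gates (adjusted p = 0.0647) and with at least 2000 UMIs per cell (adjusted p = 0.24). Ileal barcodes with 10 to 100 UMIs held between 0.515 and 2.78 CPM of TLR4. Macrophage markers in these cells were at 7.65 CPM in ileum and 5.44 CPM in blood, summed over 6 genes, against 28149 CPM in ileal macrophages. CD163 was at 0 in ileum. The ileal B cell gates allowed at most 1 UMI of CSF1R, C1QA, C1QB and C1QC together, and the blood gates limited CSF1R with FCN1 and AIF1. These low sums thus follow partly from the gates, and the part of macrophage RNA was not tested.

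TLR10, a surface receptor whose gene neighbours TLR1 and TLR6, measured 26.0 and 31.0 CPM in blood resting B cells, 15.1 and 11.5 CPM in blood cycling B cells, 15.1 and 8.84 CPM in ileal resting B cells, 6.11 and 8.76 CPM in ileal GC B cells and 4.24 and 5.67 CPM in ileal cycling B cells. The ileal resting and GC gates were separated only by the narrow gap between 8.84 and 8.76 CPM. Between ileal and blood resting B cells the log2 difference was -1.18 ± 0.43 (adjusted p = 0.0659), with a 95% interval from -2.06 to -0.30. With the pig as a block, as the same animals gave both tissues, it was -1.16 and passed the threshold (adjusted p = 0.0214). The genes most correlated with TLR10 over the sums were LAMP3 (r = 0.83), a lysosomal membrane protein, and HLA-DOB (r = 0.77), which modulates MHC class II loading.

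TLR9, the endosomal receptor of CpG DNA, ran in the other order within B cells. Ileal GC B cells held 11.3 and 13.9 CPM and ileal cycling B cells 8.06 and 9.20 CPM, against 6.20 and 3.64 CPM in ileal resting B cells and 2.77 and 2.41 CPM in blood resting B cells. Blood cycling B cells held 0 and 1.27 CPM. The differences tested between these groups did not pass edgeR's test. Ileal resting against GC B cells gave -1.11 ± 0.51 (adjusted p = 0.143) and ileal against blood resting B cells 1.00 ± 0.61 (adjusted p = 0.307). Cycling against GC B cells of the ileum gave -0.54 ± 0.41 (adjusted p = 0.512). Within single libraries the GC level ranged from 4.69 CPM in the library labelled whole ileum pig 1 to 17.1 CPM in whole ileum pig 2.

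The comparison of ileal resting with ileal GC B cells asks how recirculating cells differ from cells in the germinal center. It called 2 of the 7 members tested, both higher in resting cells, where 20.6% of all genes were called, 11.4% higher and 9.14% lower. TLR2, the lipopeptide receptor, had 11.08 and 6.76 CPM in resting against 2.75 and 0.641 CPM in GC B cells, without overlap, a log2 difference of 2.77 ± 0.61 (adjusted p = 0.00164). TLR8, a receptor of single-stranded RNA, had 2.66 and 3.12 CPM in resting against 0 and 0.214 CPM (0 and 1 UMI) in GC B cells, a fitted log2 difference of 4.46 ± 1.02 (adjusted p = 0.00264). Its ratio of pooled counts was 22.8, with a counting interval from 3.38 to 976, and the call was lost with stricter gates (adjusted p = 0.142). Without the library labelled whole ileum pig 1 both were still called, at log2 2.93 for TLR2 and 4.26 for TLR8. CD180 went the other way at -0.93 ± 0.35 (adjusted p = 0.0625), and was called with the pig as a block (log2 -0.92, adjusted p = 0.0232).

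Among the 40 other pathway genes tested in that comparison, 11 were higher and 1 was lower in resting B cells, where 11.4% of all genes were higher and 9.14% lower. The median log2 difference was 0.16 against 0 over all genes. All 5 inhibitors of the pathway tested were among those higher. SIGIRR, a receptor that dampens Toll-like and IL-1 receptor signalling, had the largest difference (log2 4.15 ± 0.28, adjusted p = 6.18e-11). IRAK3, an inhibitory kinase-like protein (adjusted p = 0.00722), had 14 UMIs in resting and 3 in GC B cells, a ratio of pooled levels of 8.88 with a 95% counting interval from 2.48 to 48.2. TICAM1, which encodes the adaptor TRIF (2.86 ± 0.42, adjusted p = 1.56e-05), and the transcription factor IRF5 (2.72 ± 0.24, adjusted p = 3.34e-09) were also higher. MYD88 (-0.10 ± 0.24, adjusted p = 0.845), UNC93B1, the chaperone of endosomal receptors (0.49 ± 0.28, adjusted p = 0.255), and LY86 (0.10 ± 0.21, adjusted p = 0.808) did not pass the test.

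Cycling and non-cycling GC B cells were compared to see what division adds. By edgeR's quasi-likelihood test 0 of the 7 members passed, where 9.09% of all genes did (6.18% higher and 2.9% lower), and 1, TLR3, had an unadjusted p below 0.05. TLR3 measured 0.212 and 0.358 CPM in cycling and 0.611 and 1.71 CPM in GC B cells, a log2 difference of -1.95 ± 0.85 (adjusted p = 0.181). DESeq2 called 0 members and the fit with 1 sum per library called 1. For CD180 the 95% interval of the log2 difference ran from -1.04 to 0.14 and for TLR9 from -1.39 to 0.31. LY86 was lower in cycling cells (-0.76 ± 0.21, adjusted p = 0.0169), as were LY96, the gene of MD-2 (-0.95 ± 0.27, adjusted p = 0.0251), and IRF3 (-0.92 ± 0.19, adjusted p = 0.00132).

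In antibody-secreting cells (ASCs) most members were at or near the level of 1 UMI per sum. CD180 had 1.84 and 1.27 CPM (2 UMIs in each pig) against 10.6 and 16.6 CPM in ileal resting B cells. Both ASC values were below both resting values, with a log2 difference of -2.31 ± 0.73 (adjusted p = 0.0221) as the only call among the 7 members tested, where 24.4% of all genes were called, 11.6% higher and 12.8% lower. TLR2 was at 4.60 and 3.17 CPM in ASCs against 11.08 and 6.76 CPM in ileal resting B cells, without overlap, and did not pass the test (log2 -0.41 ± 0.68, adjusted p = 0.736, 95% interval from -1.80 to 0.98), and TLR10 was at 0.921 and 2.54 CPM (log2 -1.83 ± 0.74, adjusted p = 0.0801). Of the other pathway genes 17 of 40 were lower and 2 higher, with a median of -0.74 against -0.08 over all genes. LY86 was lower by -3.65 ± 0.26 (adjusted p = 2.89e-11), while HSP90B1, the endoplasmic reticulum chaperone of Toll-like receptors and of other secretory proteins (4.03 ± 0.26, adjusted p = 5.81e-12), and UNC93B1 (1.15 ± 0.30, adjusted p = 0.00526) were higher.

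**Figure D3:**
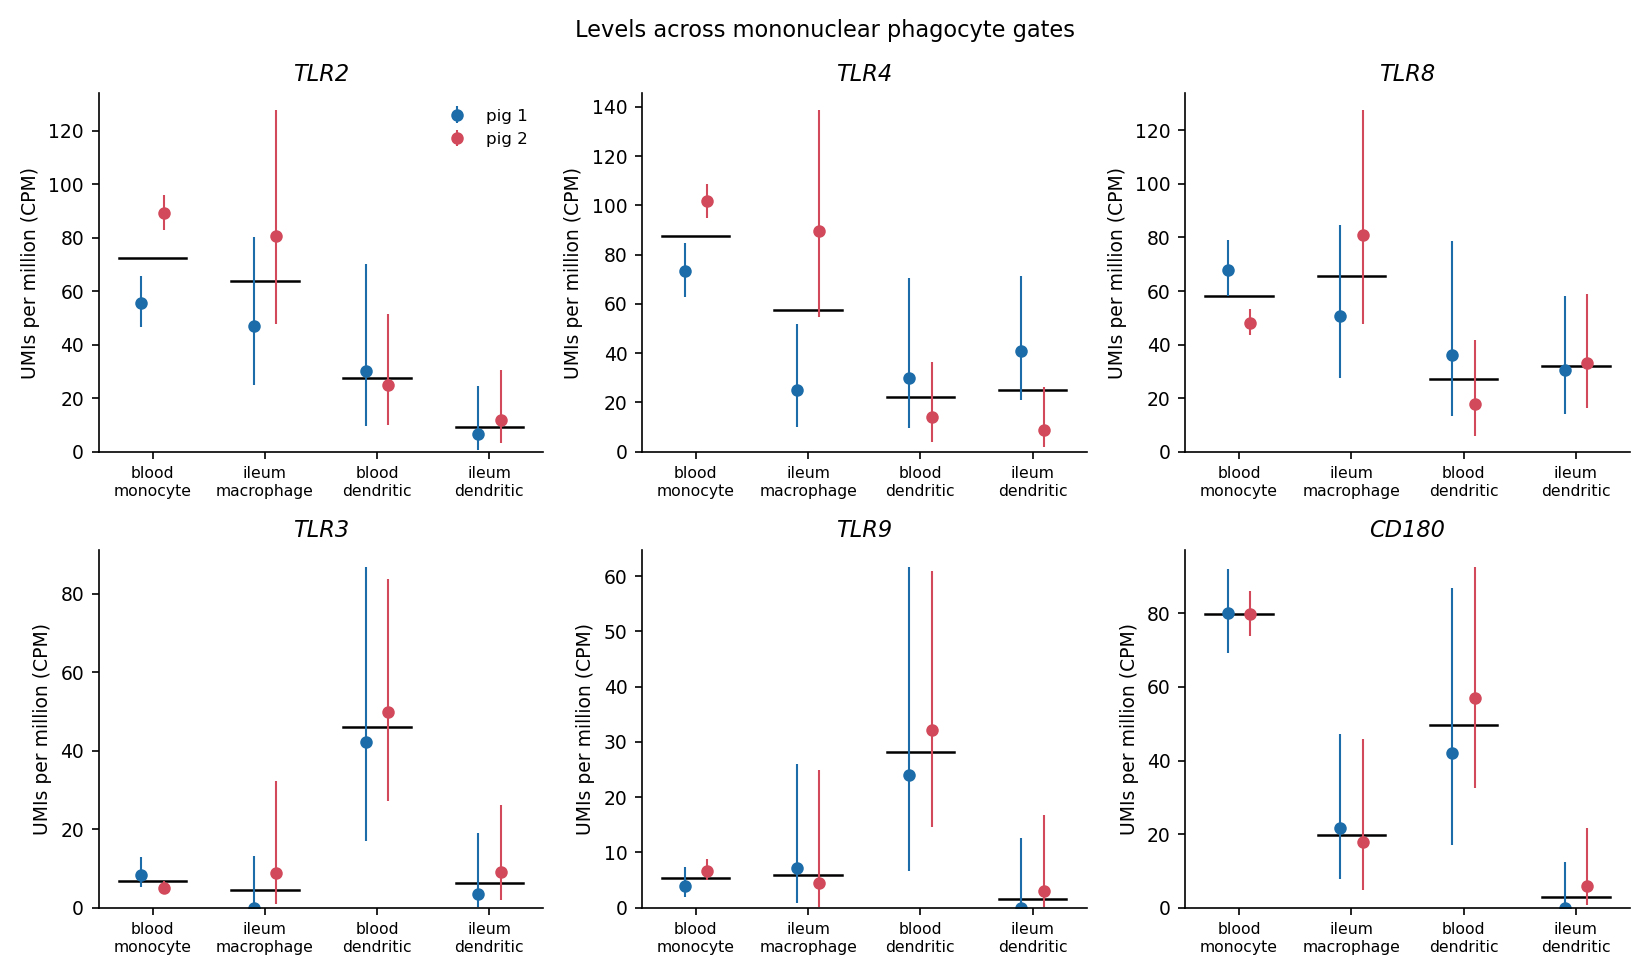
CPM of TLR2, TLR4, TLR8, TLR3, TLR9 and CD180 in blood monocytes, ileal macrophages, blood DCs and ileal DCs. Points are the 2 pigs with exact Poisson 95% intervals and the black line is their mean; TLR4 is at 73.2 and 102 CPM in monocytes and at 30.1 and 14.3 CPM in blood DCs, whereas TLR3 is at 8.44 and 5.01 CPM and at 42.2 and 49.96 CPM.

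Blood monocytes carried the surface receptors TLR2 and TLR4 and the endosomal TLR8 at the highest levels of the blood gates. TLR4 measured 73.2 and 102 CPM in monocytes and was seen in 35.0% and 45.8% of them, at medians of 6642 and 7418.5 UMIs per cell, against 0.0965% and 0.458% of blood T cells at medians of 3260 and 3259 UMIs. After thinning the shares were 8.44% and 13.1% against 0.0643% and 0.164%. TLR2 measured 55.5 and 89.3 CPM and TLR8 67.96 and 48.1 CPM in monocytes, against 15.5 and 18.7 CPM and 4.15 and 4.28 CPM in blood resting B cells. The 2 gates did not overlap for TLR2, TLR4 or TLR8.

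Against blood resting B cells, 5 of the 7 members tested were called in monocytes, 4 higher and 1 lower, where 40.8% of all genes were called, 21.3% higher and 19.5% lower. TLR4 was higher by 8.19 ± 0.69 on the log2 scale (adjusted p = 3.20e-09), against 2 UMIs in blood B cells, with a ratio of pooled counts of 349 and a counting interval from 96.4 to 2887. TLR8 was higher by 3.75 ± 0.39 (adjusted p = 3.65e-08) and TLR2 by 2.08 ± 0.35 (adjusted p = 2.74e-05). TLR3, the receptor of double-stranded RNA, had 8.44 and 5.01 CPM against 2.21 and 1.60 CPM (1.73 ± 0.67, adjusted p = 0.0427). This last call was lost with DESeq2's size factors (adjusted p = 0.0502), with stricter gates (adjusted p = 0.0981) and without the library labelled whole ileum pig 1 (adjusted p = 0.0514).

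TLR10 was the member lower in monocytes, at 1.61 and 0.366 CPM against 26.0 and 31.0 CPM in blood resting B cells (log2 -5.33 ± 0.59, adjusted p = 1.27e-07). CD180 did not differ by the test, at 80.0 and 79.7 CPM in monocytes against 69.7 and 89.3 CPM in blood resting B cells. Its monocyte values lay between the B cell values, and the 95% interval of the log2 difference ran from -0.58 to 0.56. LY86 was lower in monocytes, at 359 and 411 CPM (-1.24 ± 0.21, adjusted p = 2.37e-05). The TLR4 partners were higher, CD14 by 6.94 ± 0.44 (adjusted p = 9.58e-12) and LY96 by 1.47 ± 0.27 (adjusted p = 8.23e-05), as were UNC93B1 (2.57 ± 0.26, adjusted p = 9.08e-09) and MYD88 (1.38 ± 0.21, adjusted p = 4.82e-06). Of the 40 pathway genes, 13 were higher and 5 lower, where 21.3% of all genes were higher and 19.5% lower.

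Ileal macrophages, 57 and 39 cells, were set beside blood monocytes as the phagocytes of the other tissue. The 2 gates are not the same. The ileal one asked for at least 4 UMIs of C1QA, C1QB and C1QC together, and the blood one allowed at most 1. Tissue, cell isolation and kind of phagocyte therefore cannot be told apart here. TLR8 measured 50.5 and 80.7 CPM, TLR2 46.9 and 80.7 CPM and TLR4 25.3 and 89.7 CPM, and for each of these genes the pigs overlapped with the monocytes. The 95% intervals of the log2 differences ran from -0.75 to 0.89 for TLR8, from -1.22 to 0.57 for TLR2 and from -1.79 to 0.24 for TLR4. CD180 was the 1 member of 7 called, where 19.3% of all genes were (9.8% higher and 9.53% lower), at 21.6 and 17.9 CPM in macrophages against 80.0 and 79.7 CPM in monocytes (log2 -2.09 ± 0.51, adjusted p = 0.00417). It was as low without the library labelled whole ileum pig 1 (-2.03, adjusted p = 0.00639). LY86 was also lower in macrophages, at 209 and 179 CPM (-1.08 ± 0.23, adjusted p = 0.00131), while CD14, at 148 CPM in both pigs, did not pass the test (-0.44 ± 0.33, adjusted p = 0.408).

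CD180 was thus lower in the ileal than in the blood gate both among resting B cells and among phagocytes, the latter gated in different ways in the 2 tissues. For resting B cells an interaction was taken, the difference of resting B and T cells in ileum minus that in blood. The non-PP libraries gave 3273 and 3229 of the ileal T cells, and 6 and 5 of the ileal resting B cells. The interaction thus does not cancel what a library adds to its cells, and it does not cover the phagocytes. Of the 7 members 2 were called, where 5.2% of all genes were, 3.2% higher and 2% lower. CD180 gave -1.93 ± 0.53 (adjusted p = 0.0291), T cells holding 1.92 and 0.907 CPM in ileum and 1.49 and 2.68 CPM in blood. It missed the threshold without the library labelled whole ileum pig 1 (-1.63, adjusted p = 0.111) and with at least 2000 UMIs per cell (adjusted p = 0.0918). TLR4 gave 6.40 ± 1.44 (adjusted p = 0.00926), its T cells holding 0.0408 and 0.101 CPM (1 and 2 UMIs) in ileum and 0.297 and 1.14 CPM (4 and 14 UMIs) in blood. It was still called without that library (6.28, adjusted p = 0.0207), and missed the threshold with at least 2000 UMIs per cell (adjusted p = 0.07). Free RNA in blood, where barcodes with 10 to 100 UMIs held 5.53 and 15.0 CPM of TLR4, moved with the blood T cell values, and its part was not tested.

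Blood DCs, 26 and 39 cells, held more TLR3 and TLR9 and less TLR2 and TLR4 than monocytes. Beside CST3, the blood gate asked for FLT3, FCER1A or XCR1, or for at least 3 plasmacytoid DC markers. In ileum only the first of these ways was used. The blood gate can thus hold conventional and plasmacytoid DCs together, which were not told apart, and it is not the same gate as in ileum. TLR3 measured 42.2 and 49.96 CPM in blood DCs, its highest level of all gates, against 8.44 and 5.01 CPM in monocytes (log2 2.55 ± 0.67, adjusted p = 0.0155). TLR9 measured 24.1 and 32.1 CPM against 4.02 and 6.72 CPM (2.04 ± 0.64, adjusted p = 0.0454), also its highest level. For both genes the CPM of the 2 gates did not overlap. A TLR3 UMI was seen in between 19.2% and 28.2% of blood DCs, and after thinning in 0% in both pigs. The thinned shares of monocytes were between 0.508% and 0.512%. For TLR9 the thinned shares were between 0% and 7.69% in blood DCs and between 0.846% and 1.02% in monocytes.

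The surface receptors TLR2 and TLR4 were lower in blood DCs. TLR4 measured 30.1 and 14.3 CPM against 73.2 and 102 CPM in monocytes (log2 -2.41 ± 0.63, adjusted p = 0.0143), and TLR2 30.1 and 24.98 CPM against 55.5 and 89.3 CPM (-1.75 ± 0.54, adjusted p = 0.0372). Blood barcodes with 10 to 100 UMIs held 5.53 and 15.0 CPM of TLR4 and 2.55 and 24.3 CPM of TLR2, in pig 2 close to the DC level of both genes, and the part of free RNA in these DC values was not tested. With these, 4 of the 7 members were called, where 10.5% of all genes were, 4.13% higher and 6.4% lower. TLR8, at 36.2 and 17.8 CPM, missed the threshold (-1.51 ± 0.50, adjusted p = 0.056) and passed it with the pig as a block (-1.49, adjusted p = 0.0359). CD14 was lower too (-4.36 ± 0.56, adjusted p = 1.00e-05), as was LY86 (-1.95 ± 0.25, adjusted p = 5.60e-06), while IRF8, a transcription factor of DC development, was higher (3.03 ± 0.25, adjusted p = 3.78e-09).

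The blood DC sums held 21 UMIs of TLR3 and 13 of TLR9 over both pigs. Of the 4 calls, that of TLR3 held under each of the 9 alternatives tested that kept both pigs, none of which thinned the cells. TLR2 was lost with DESeq2 (adjusted p = 0.116), with DESeq2's size factors (adjusted p = 0.0919) and with 1 sum per library (adjusted p = 0.086), and TLR4 with DESeq2 (adjusted p = 0.0522). TLR9 was lost with 1 sum per library (adjusted p = 0.0591) and without the library labelled whole ileum pig 1 (adjusted p = 0.0572). All 11 monocyte markers were detected in blood DCs, with a sum of 30464 CPM against 9836 CPM in monocytes. CST3, which is also on the DC list, made 28487 CPM of that sum in DCs and 1025 CPM in monocytes. The part of monocyte RNA in the DC values was not tested.

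Ileal DCs, 42 and 58 cells, differed from ileal macrophages in TLR2. It measured 6.82 and 12 CPM in DCs against 46.9 and 80.7 CPM in macrophages (log2 -2.74 ± 0.74, adjusted p = 0.021), without overlap and as the 1 call of 7 members, where 7.22% of all genes were called, 2.66% higher and 4.56% lower. The library labelled whole ileum pig 1 gave 26 of the 42 DCs of pig 1. Without it too few DCs were left, so the TLR2 call could not be tested without that library. TLR8 had 30.7 and 33.0 CPM in ileal DCs (-1.06 ± 0.51, adjusted p = 0.269). TLR4 had 40.9 and 9.0 CPM (-1.23 ± 0.69, adjusted p = 0.363), and the 12 UMIs of pig 1 came from 5 cells. CD180 had 0 and 6.0 CPM (0 and 2 UMIs), and its pooled level was higher in macrophages by a ratio of 6.27, with a counting interval from 1.34 to 58.8 (edgeR adjusted p = 0.178).

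TLR10 was found in ileal DCs, at 17.0 and 9.0 CPM (5 and 3 UMIs), and had 0 UMIs in ileal macrophages of both pigs. Against a floor of 3 counts over the macrophages of both pigs together its pooled level was 2.13-fold higher in DCs, with the counting error of the DC UMIs left out. The difference did not pass edgeR's test (adjusted p = 0.129). The B cell markers CD79B and MS4A1 were at 11.2 and 4.79 CPM in ileal DCs, against 1084 and 639 CPM in ileal resting B cells. PAX5 was at 0 in these DCs. The DC gate allowed at most 1 UMI of B cell markers per cell, so these low levels follow partly from the gate. CD14 was lower in ileal DCs than in macrophages (adjusted p = 2.27e-05), with 3 against 74 UMIs, and its pooled level was higher in macrophages by a ratio of 30.9, with a counting interval from 10.2 to 153. Among the 40 pathway genes, 1 was higher and 4 were lower, where 2.66% of all genes were higher and 4.56% lower.

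T cells held little of any member. In ileal T cells, 7847 and 6840 cells, TLR4 measured 0.0408 and 0.101 CPM, TLR9 0.122 and 0.151 CPM, TLR8 0.204 and 0.151 CPM, TLR10 0.163 and 0.604 CPM, and TLR2 1.02 and 0.604 CPM. Against ileal resting B cells 6 of 7 members were called, all lower in T cells, where 25.4% of all genes were called, 11.2% higher and 14.2% lower. The log2 differences ranged from -3.46 ± 0.41 for CD180 (adjusted p = 3.09e-07) to -5.25 ± 0.99 for TLR4 (adjusted p = 0.000296), whose ratio of pooled counts was 46.0 with a counting interval from 12.6 to 251. TLR3, with 1 UMI in ileal resting B cells and 7 in T cells, did not pass the test (adjusted p = 0.807). LY86 was lower in T cells by -6.68 ± 0.27 (adjusted p = 3.07e-16), and 19 of the 40 pathway genes were lower and 3 higher.

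CD180 in ileal T cells followed the dissection. It was 3.37 and 1.44 CPM in PP libraries, 2.77 and 1.39 CPM in whole ileum and 0.304 and 0.402 CPM in non-PP libraries, and the barcodes with 10 to 100 UMIs ran alike, with 0.772 and 0.544 CPM in the non-PP libraries. The non-PP libraries held 6 and 5 resting B cells, too few for a comparison of resting B cells between PP and non-PP tissue. The gate of NK cells and innate lymphoid cells had 1 UMI of any member in ileum, of TLR10. Over its 55 and 76 cells of both pigs together a count of 0 allows up to 7.80 CPM. In blood this gate had 2 and 1 UMIs of TLR2, and 2 UMIs each of TLR8 and CD180 in pig 2. In both tissues the gate itself asked for 0 UMIs of CD3D, CD3E and CD3G. The authors describe ileal innate lymphoid cells that express CD3G, and found many more innate lymphoid cells than the ileal gate holds. The gate thus covers only a part of these cells. Whether the T cell gate holds others was not tested. In ileal mast cells TLR8 was seen, with 2 and 1 UMIs in 26 and 25 cells.

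**Figure D4:**
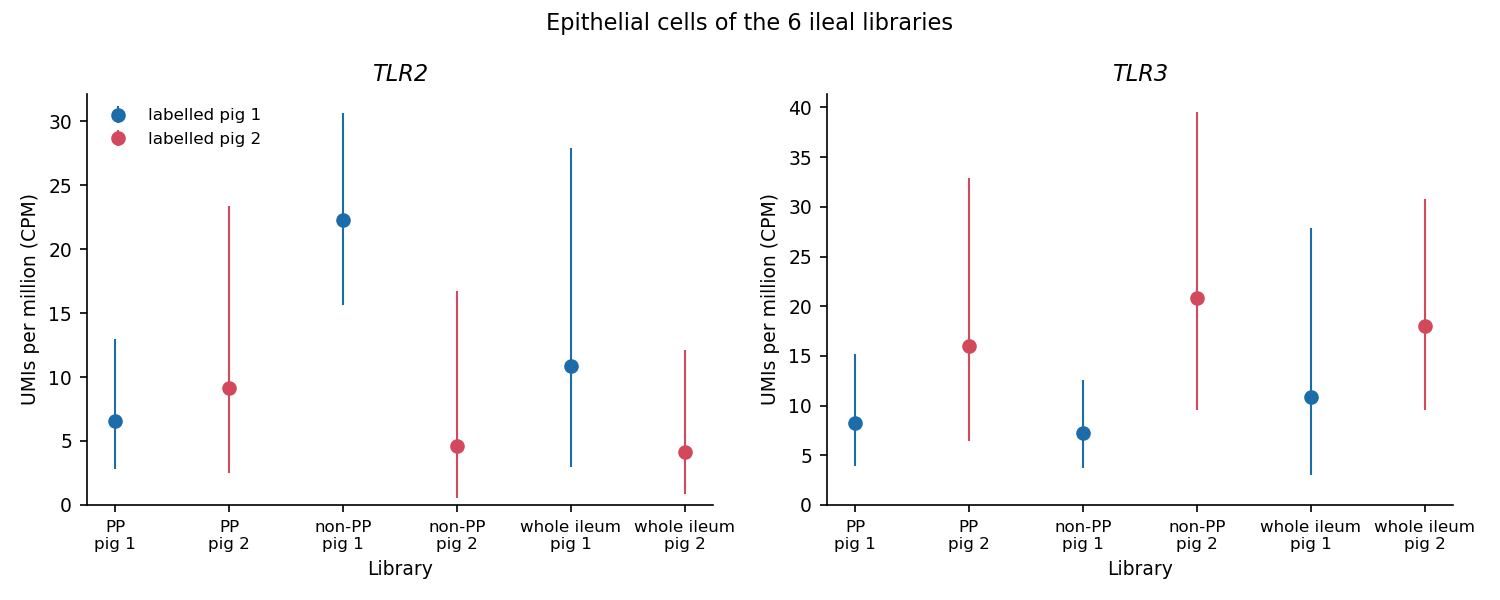
CPM of TLR2 and TLR3 in epithelial cells of the 6 ileal libraries, with exact Poisson 95% intervals. For TLR3 the 3 libraries of pig 2 lie at 16.0 to 20.8 CPM and the 3 labelled pig 1 at 7.21 to 10.9 CPM, and for TLR2 the non-PP library of pig 1 lies highest at 22.2 CPM.

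Epithelial cells, 328 and 154, held TLR2 and TLR3 and next to none of the others. TLR3 measured 8.02 and 18.2 CPM against 0.122 and 0.202 CPM in ileal T cells, and TLR2 15.1 and 5.65 CPM against 1.02 and 0.604 CPM. An epithelial TLR3 UMI was seen in 7.93% and 17.5% of cells at medians of 9419 and 9988.5 UMIs, and in 0.0382% and 0.0585% of T cells at medians of 2612 and 2545 UMIs, and after thinning in 1.52% and 1.95% against 0% and 0.0439%. The gates did not overlap, with log2 differences of 6.31 ± 0.72 for TLR3 (adjusted p = 1.32e-07) and 4.02 ± 0.47 for TLR2 (adjusted p = 9.37e-08). Together with CD180, 3 of the 7 members were called in epithelial against T cells, where 52.9% of all genes were, 32% higher and 20.9% lower. Macrophage markers were at 9.31 CPM in epithelial cells, summed over 6 genes, with CSF1R and CD163 at 0. The epithelial gate allowed at most 1 UMI of CSF1R, C1QA, C1QB and C1QC together, so this low sum follows partly from the gate.

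CD180, TLR7, TLR8, TLR9 and TLR10 had 0 UMIs in epithelial cells of both pigs, which allows a level of up to 0.620 CPM over both pigs together, and TLR4 had 2 UMIs, both in 1 cell. For CD180, called lower than in T cells (adjusted p = 0.0193), the pooled T cell level was 2.36-fold that of a floor of 3 counts over the epithelial cells of both pigs together. In T cells of the non-PP libraries, however, CD180 was itself below 0.620 CPM in both pigs. The non-PP libraries gave 194 and 44 of the epithelial cells. The parts of dissection and of free RNA in this call were not tested. The 2 pigs ordered TLR2 and TLR3 in opposite ways, pig 1 being higher in TLR2 and pig 2 in TLR3. By library TLR3 was 8.24 and 16.0 CPM in PP, 7.21 and 20.8 CPM in non-PP and 10.9 and 18 CPM in whole ileum, so that pig 2 was higher in each dissection. TLR2 was 6.60 and 9.12 CPM in PP, 22.2 and 4.63 CPM in non-PP and 10.9 and 4.15 CPM in whole ileum, with pig 1 higher in 2 of the 3 dissections. The library labelled whole ileum pig 1 went against its label in sex-linked genes. Without whole ileum, pig 1 was higher in TLR2 only in non-PP and pig 2 in PP, while pig 2 stayed higher in TLR3 in both. With 2 animals, a difference between them carries no test.

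Of the 40 other pathway genes tested 12 were higher and 12 lower in epithelial than in T cells, where 32% of all genes were higher and 20.9% lower. LBP, which encodes the lipopolysaccharide-binding protein (7.03 ± 0.88, adjusted p = 1.60e-05), and TICAM1, the adaptor that TLR3 uses (3.51 ± 0.32, adjusted p = 4.08e-10), were among the higher, as were UNC93B1 (1.72 ± 0.29, adjusted p = 1.04e-05) and CD14 (1.82 ± 0.49, adjusted p = 0.00324). LY96, whose protein MD-2 TLR4 needs to bind lipopolysaccharide, was lower, at 3.70 and 1.26 CPM against 97.2 and 118 CPM (-4.95 ± 0.41, adjusted p = 8.34e-11). IRAK2, a kinase of the MyD88 complex, was lower as well (adjusted p = 8.99e-07), with 0 UMIs in epithelial cells of both pigs against 7.14 and 7.10 CPM in T cells. Its pooled T cell level was 11.5-fold that of the same floor. MYD88 did not pass the test (0.04 ± 0.22, adjusted p = 0.892).

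TLR7, the other receptor of single-stranded RNA, was the member with fewest UMIs. It had 86 UMIs in all gates, at most 6.03 CPM in any gate of either pig, and failed edgeR's filter on low counts, so that it was not tested. In blood it had 1.94 and 1.60 CPM in resting B cells and 2.81 and 3.18 CPM in monocytes. In the ileum it had 1.77 and 0.520 CPM in resting B cells (4 and 1 UMIs) and 0 UMIs in GC B cells. Its pooled level in resting B cells was 3.17-fold that of a floor of 3 counts over the GC B cells of both pigs together. The counting error of the resting B cell UMIs is left out of that fold.

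**Figure D5:**
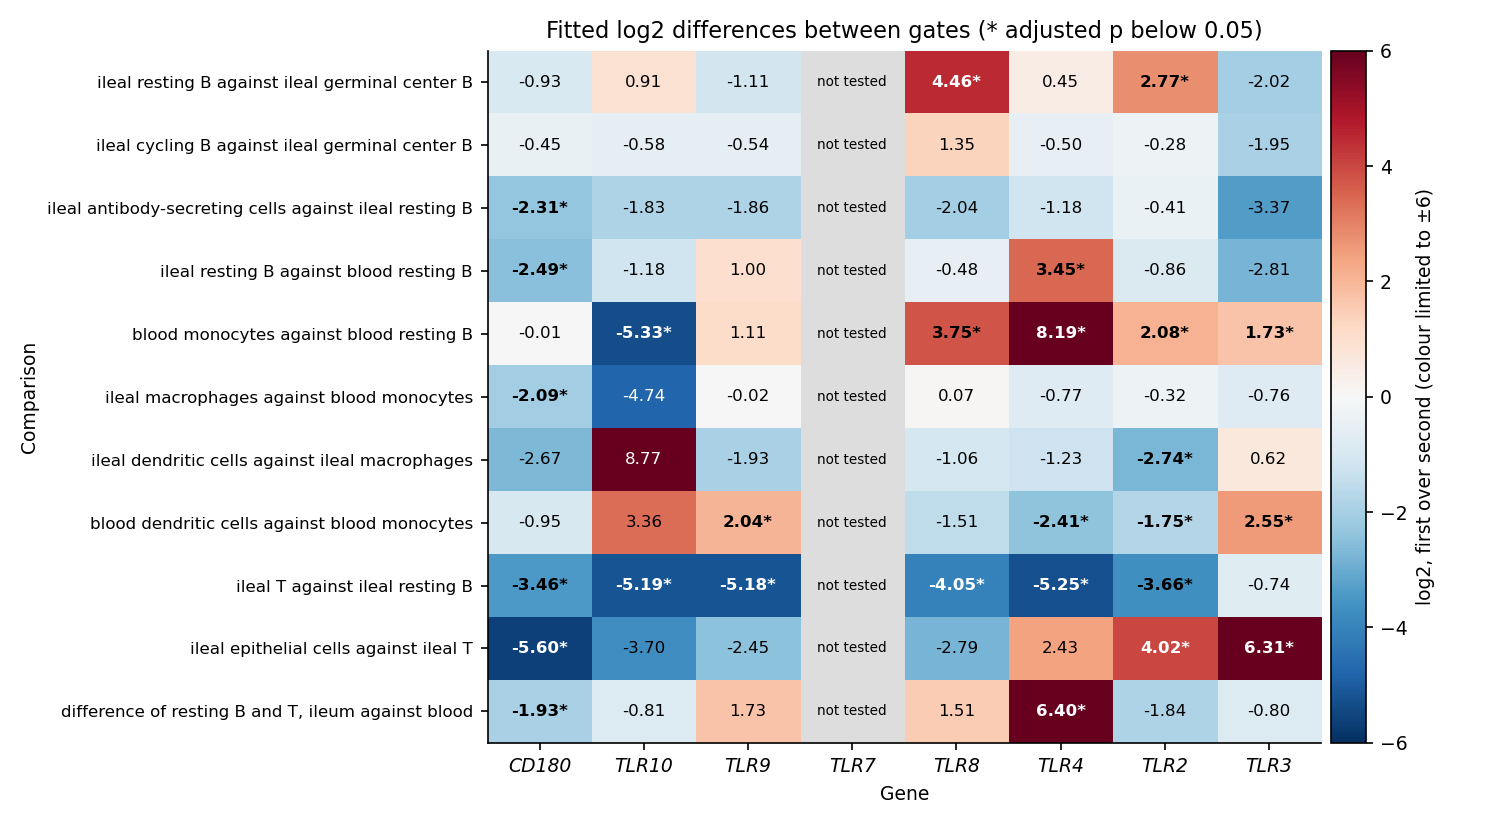
Fitted log2 differences of the 7 members tested in the 11 comparisons, from edgeR's quasi-likelihood test on sums per pig and gate. Colour is the log2 difference of the first against the second group, limited to 6 on either side, and a star marks an adjusted p below 0.05; 27 of the 77 tests carry a star, where from 5.2% to 52.9% of all genes passed, depending on the comparison.

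Over the gates of at least 20 cells in each pig, the order of levels separated the members. CD180 was highest in monocytes (mean 79.9 CPM) and blood resting B cells (79.5 CPM), whose values overlapped, and TLR10 in blood resting B cells (28.5 CPM). TLR4 (87.4 CPM) and TLR2 (72.4 CPM) were highest in monocytes and next in macrophages, with overlapping values, and TLR8 was highest in macrophages (65.6 CPM) and next in monocytes, with overlap. TLR3 (46.1 CPM) and TLR9 (28.1 CPM) were highest in blood DCs, without overlap with the gate that followed.

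Genes picked for running most alike with a member over the 34 sums follow its gates by that choice. TLR4 ran with GPR84 (r = 0.94), PSAP (r = 0.93) and IGSF6 (r = 0.92), and TLR8 with TIMP2 and FOLR1 (r = 0.93 for each). TLR2 ran with SLC15A3 (r = 0.83) and TLR3 with EPS8 (r = 0.89). TLR9 ran with the gene given as GP91-PHOX (r = 0.84) and TLR7 with F13A1 (r = 0.66). Of the partner genes, CD14 correlated with TLR4 at 0.82 and with TLR2 at 0.75, and LY96 with TLR4 at 0.52. UNC93B1 correlated at 0.75 with each of the surface receptors TLR2 and TLR4. With the endosomal TLR3, TLR9, TLR8 and TLR7 it correlated at 0.59, 0.56, 0.50 and 0.38. LY86 correlated with TLR10 at 0.73, and TLR9 and CD180 correlated at 0.72. All of these sums come from 8 libraries, and how much of each r single gates carry was not tested.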

How the data were processed

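The deposited values were raw UMI counts per gene and barcode, made by the authors with Cell Ranger (version 4.0.6 in the submitters' processing notes), from before their removal of ambient RNA, poor cells and doublets. The authors' cell annotation was not used here. The runs listed for a library (32 in all, 4 per library) share 1 matrix and were taken as 1 library. Symbols came from the matrices, and 977 from the name table.

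Cells were kept at the study's stated thresholds and gated on marker UMIs in Python 3.11.15 with numpy 2.4.6, scipy 1.17.1, pandas 2.3.3, scanpy 1.11.5 and matplotlib 3.10.9. Gate thresholds were set after the data had been seen, and the members and gene lists were chosen with earlier results of these data known. Doublets (2.75% to 3.93% of cells, by simulated doublets at a rate of 0.07 and a score limit of 0.25) were kept, except in an alternative, and 4751 B cells fitted no state. Shares carry Clopper-Pearson and CPM exact Poisson 95% intervals, which cover counting error only. A count of 0 was bounded by 3 counts, and folds against this floor leave out the counting error of the other count. Some marker genes are not reported here. Other genes were named by the rule of at most 4 called pathway genes of largest fold per comparison, LY86, CD14, LY96, UNC93B1 and MYD88, and the 5 genes most correlated with a member.

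Counts were summed per pig and gate of at least 20 cells in each pig, which gave 34 sums in 17 groups, and tested in 1 fit in R 4.3.3 with edgeR 4.0.16 (limma 3.58.1), by the quasi-likelihood test after TMM scaling and edgeR's filter on low counts, over 10300 genes with Benjamini-Hochberg adjustment. Of 46 pathway genes listed, 44 were found and 40 tested. The scripts were tested on simulated data. Alternatives were DESeq2 1.42.0 and its size factors, no filter, the pig as a block, sums per library, stricter gates, doublets left out, at least 2000 UMIs per cell, and leaving out a pig or the library labelled whole ileum pig 1. Both tissues came from the same animals, so pig numbers pair the sums: in gates of at least 200 cells the deviations of same-pig sums correlated at 0.11 to 0.50 over 21 pairs of gates.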

Additional observations from a re-analysis of the deposited data

Results flagged for a closer look

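Of 25 groups of 4 to 6 libraries checked, each holding the levels of 1 member in 1 gate, 2 had a library far from the others, and chance alone gives about 1 in 20. TLR2 in epithelial cells was at 22.2 CPM in the non-PP library of pig 1 and between 4.15 and 10.9 CPM in the other 5 ileal libraries. TLR8 in ileal resting B cells was at 3.79 CPM in whole ileum of pig 2, which rests on 3 UMIs, and between 2.62 and 2.78 CPM in the other 3 libraries.

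The difference between resting B and T cells itself differed between ileum and blood by edgeR's test for TLR4, at a log2 value of 6.40, and for CD180, at -1.93. The first rests on few UMIs in ileal T and blood B cells, and the second missed the threshold without the library labelled whole ileum pig 1.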

How the results depend on the processing

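Of 77 tests of members in 11 comparisons, 27 passed the threshold, where from 5.2% to 52.9% of all genes passed, depending on the comparison. There were 9 alternatives that kept both pigs, and not every comparison could be tested in each. In those where it could, 19 of the 27 kept direction and call, while 8 lost the call in at least 1. Those 8 are named beside their results. The number of members called moved by over 1.5 times as follows. With stricter gates it was 1 in place of 2 for ileal resting against GC B cells and 1 in place of 2 for ileal against blood resting B cells. The latter was also 1 with at least 2000 UMIs per cell and 1 without the library labelled whole ileum pig 1, without which the interaction of resting B and T cells with tissue gave 1 in place of 2. With at least 2000 UMIs per cell the interaction gave 0 by edgeR. With 1 sum per library and gate, cycling against GC B cells gave 1 in place of 0, and blood DCs against monocytes 2 in place of 4. The causes were not tested. The pig as a replicate block added the calls of CD180, TLR10 and TLR8 given in the report, so that members called were 3 for ileal resting against GC B cells, 3 for ileal against blood resting B cells and 5 for blood DCs against monocytes, and it changed no other call.

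Leaving out either pig gave values with no test from sums per pig, in which none of the 27 calls changed direction. With 1 sum per library and gate, a setting chosen after seeing the data, where a lone blood library is assumed to vary like the others, leaving out a pig gave from 1 to 2 members for ileal resting against GC B cells, 0 to 1 for ASCs, 1 in each case for ileal against blood resting B cells, 3 to 4 for monocytes against blood resting B cells, 0 to 3 for blood DCs against monocytes, 6 for T cells, 2 for epithelial cells and 0 for the interaction.

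Signs turned only for differences that had not passed the test. In this list, without replicate 1 or 2 means 1 sum per library and gate with that pig left out. Turns of sign with a pig left out of the sums per pig, which carry no test, are not listed for members that were not called. CD180 in monocytes against blood resting B cells was 0.026 without the filter, 0.049 with 1 sum per library, 0.052 without the library labelled whole ileum pig 1, 0.020 with at least 2000 UMIs and 0.20 without replicate 2. TLR9 in macrophages against monocytes was 0.25 with DESeq2's size factors, 0.23 with DESeq2, 0.031 with the replicate block, 0.029 with stricter gates and 0.0091 without doublets, TLR10 there was 0.23 with DESeq2 and TLR8 -0.075 without the filter. TLR4 in epithelial against T cells was -1.95 without the library labelled whole ileum pig 1 and -1.70 without replicate 1. TLR4 in resting against GC B cells was -0.26 with at least 2000 UMIs. In cycling against GC B cells TLR2 was 0.051 with stricter gates and 0.24 without replicate 1, and without replicate 1 TLR4 was 0.21 and TLR8 -0.052. TLR3 in ASCs was 0.12 with DESeq2, and in T against resting B cells 2.50 without replicate 1. In the interaction without replicate 2, TLR9 was -0.89 and TLR10 0.71.

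Depth limits these genes. Thinning each cell to the UMI threshold, which can only lower a share, moved 71 of 136 shares of cells by more than the spread between pigs. TLR7 could not be tested, and without the library labelled whole ileum pig 1, or with 1 sum per library, too few cells were left to compare ileal DCs with macrophages. Resting B cells of PP and non-PP tissue were not compared, with 6 and 5 cells in the non-PP libraries. Sums per library gave no macrophage comparison.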
